A study of Glycine max with 18 samples.

Results

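In mature leaves of soybean kept in constant light, 178 annotated genes had their highest transcript level at ZT40 in each of the replicates L, M and R and a wide range over the sampled day. They were chosen from 55589 annotated genes by a rule on the measured values. The values listed for a gene identifier as TPM, a transcript level scaled to gene length and to the library, were summed and transformed as log2(TPM + 1). A time point with a mean of 1 TPM or more was required, which 24620 genes had. Of these, 1888 were highest at ZT40 in L, M and R, and 179 of the 1888 had a range of at least 2 between the highest and the lowest of the 6 time-point means. The rule sets aside 2 genes by name, of which 1 had met these criteria, so 178 genes were left, all of them taken under a limit of 200. The height at ZT40 and the range are therefore properties of the choice and are given below as a description.

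The circadian clock of plants is an oscillator of transcription factors that repress and activate one another, and it continues to run when light and temperature no longer change. Through it, each part of the day has its own set of transcripts. In *Arabidopsis*, genes of the late night lie between the evening genes and the morning genes of the clock, such as *LHY*, whose transcript is most abundant around dawn. A leaf kept in constant light still passes through a subjective day and a subjective night, and ZT40 falls in the subjective night.

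All libraries came from wild-type Williams 82 (Ws82), a standard soybean cultivar, and no mutant, transgene or untreated control entered the comparison. Plants were raised for about 18 d under short days (8 h light, 16 h dark), moved to constant light, and sampled after 24 h of it, at ZT24, ZT28, ZT32, ZT36, ZT40 and ZT44, with 3 libraries at each time point. The labels number these time points 0 to 20 h. The temperature in constant light was 24 °C by one source and 25 °C by another, and the deposited design text has 14 d of growth with equal light and dark. The first trifoliate leaf was taken, 3 plants served for an independent experiment, and ribosomal RNA was removed from total RNA. A leaf holds many cell types, and fewer cells of a type cannot be told apart from less RNA per cell. The tissue could not be checked against leaf markers, because the files do not pair their identifiers with gene names and the reference table of 59048 genes holds 0 of them. For the same reason the genes below carry no name and no function.

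The aligned sequence, obtained as coverage divided by FPKM, was 3.11 to 7.24 Gb per library, and the ZT44 libraries were the shallowest at 3.11 to 3.53 Gb. The annotated genes of a library summed to between 513345 TPM in ZT32 R and 786050 TPM in ZT40 M. ZT32 R stood apart by this low sum, so some of the counts and medians that involve ZT32 are also given without it. Where no such value is printed, the result includes ZT32 R and was not recomputed here. Across all 24620 genes, the median difference between ZT40 and another time point was 0.33 to ZT24, 0.46 to ZT28, 0.61 to ZT32 (0.47 without ZT32 R), 0.065 to ZT36 and 0.31 to ZT44 on the log2(TPM + 1) scale, with ZT40 higher in each case. Part of a height at ZT40 was thus shared by the expressed genes at large, and 32.7% of them had their highest mean at ZT40.

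The 178 genes together took 0.218% to 0.347% of the gene TPM in each of the 9 libraries of ZT24, ZT28 and ZT32. Their share was 0.613% to 0.728% at ZT36, 1.02% to 1.05% at ZT40 and 0.565% to 0.660% at ZT44. The summed mean TPM was 7597 at ZT40 against 1617 at ZT32, and 3 genes supplied 28.7% of the sum at ZT40. The median gene had 14.6 TPM at ZT40, after 9.25 TPM at ZT36 and before 7.23 TPM at ZT44, while ZT24, ZT28 and ZT32 had medians of 3.64, 3.21 and 2.2 TPM (2.49 TPM at ZT32 without ZT32 R). Most genes were of moderate abundance at ZT40, with 122 at 10 to 100 TPM, 35 at 5 to 10 TPM, 10 below 5 TPM and 11 at 100 TPM or more. At their lowest time point 59 genes had a mean below 1 TPM, and 2 genes were listed at 0 in a single library each, ZT32 L and ZT32 R.

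The range had a median of 2.38 and reached 5.59, where the median of all 24620 genes was 1.04. It was below 2.5 in 107 genes, at least 3 in 33 and at least 4 in 6. The last gene inside the threshold was Glyma.17G037100 with 2.01, and the first outside was Glyma.16G082700 with 1.99. Their ZT40 levels were 11.3 ± 1.70 and 11 ± 1.05 TPM (SD, n = 3), so the threshold parts genes that hardly differ.

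Glyma.14G210600, on the minus strand of chromosome 14 from 47557927 to 47561596 (Gmax_Wm82_a2_v1), had the widest range. Its TPM in L, M and R was 82.8, 72.3 and 69.3 at ZT40 and 38.7, 27.3 and 36.2 at ZT44. It had been 2.35, 3.24 and 2.73 at ZT36 and 0.369, 1.02 and 0.400 at ZT32. The gene was thus nearly silent 4 h before its highest level and still well above all earlier libraries 4 h after it, and the libraries of ZT40, ZT44 and all other time points formed 3 ranges without overlap.

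Glyma.02G241000 (chromosome 2, 42928962 to 42932788, minus strand) had a like course at a lower level. It had 41.6, 47.9 and 40.9 TPM at ZT40 and 30.0, 18.2 and 27.0 TPM at ZT44, against 5.35, 7.33 and 7.48 TPM at ZT36. At ZT24 it had 6.31, 8.11 and 6.59 TPM, which overlaps with ZT36. Glyma.05G236800 (chromosome 5, 41318276 to 41321678, plus strand) was likewise low at ZT36 and had 24.8, 16.4 and 19 TPM at ZT40. At ZT24 it was at an intermediate 3.23, 9.76 and 5.96 TPM. Its 9 libraries of ZT28, ZT32 and ZT36 lay at or below 1.09 TPM, while ZT44, with 18.3, 10.4 and 13.3 TPM, overlapped with ZT40.

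Other genes of wide range were already high at ZT36. Glyma.18G211000 (chromosome 18, 49758276 to 49761534, plus strand) had 17.5, 32.6 and 28 TPM at ZT36, 38.5, 52.8 and 57.9 TPM at ZT40, and 13.4, 17.4 and 20.2 TPM at ZT44. At ZT32, its lowest time point, it had 1.06, 1.39 and 0.580 TPM, and at ZT36 it was already at 80.0% of its range. Its neighbour Glyma.18G211100 had 6.22, 23.1 and 8.32 TPM at ZT36 and 14.6, 25.5 and 17.9 TPM at ZT40. Those ranges overlapped through ZT36 M. A higher ZT40 for each letter was required of every gene by the rule.

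Glyma.08G138200 (chromosome 8, 10592507 to 10597043, plus strand) stood out by its trough. It had 30.9, 32.9 and 35.4 TPM at ZT24, below each of the other 15 libraries, and 581, 698 and 513 TPM at ZT40. At ZT28 it had 301, 576 and 435 TPM, so ZT28 and ZT40 overlapped, and its replicates spread widely at ZT32 (404, 376 and 145 TPM) and ZT36 (94.7, 275 and 282 TPM).

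**Figure D1:**
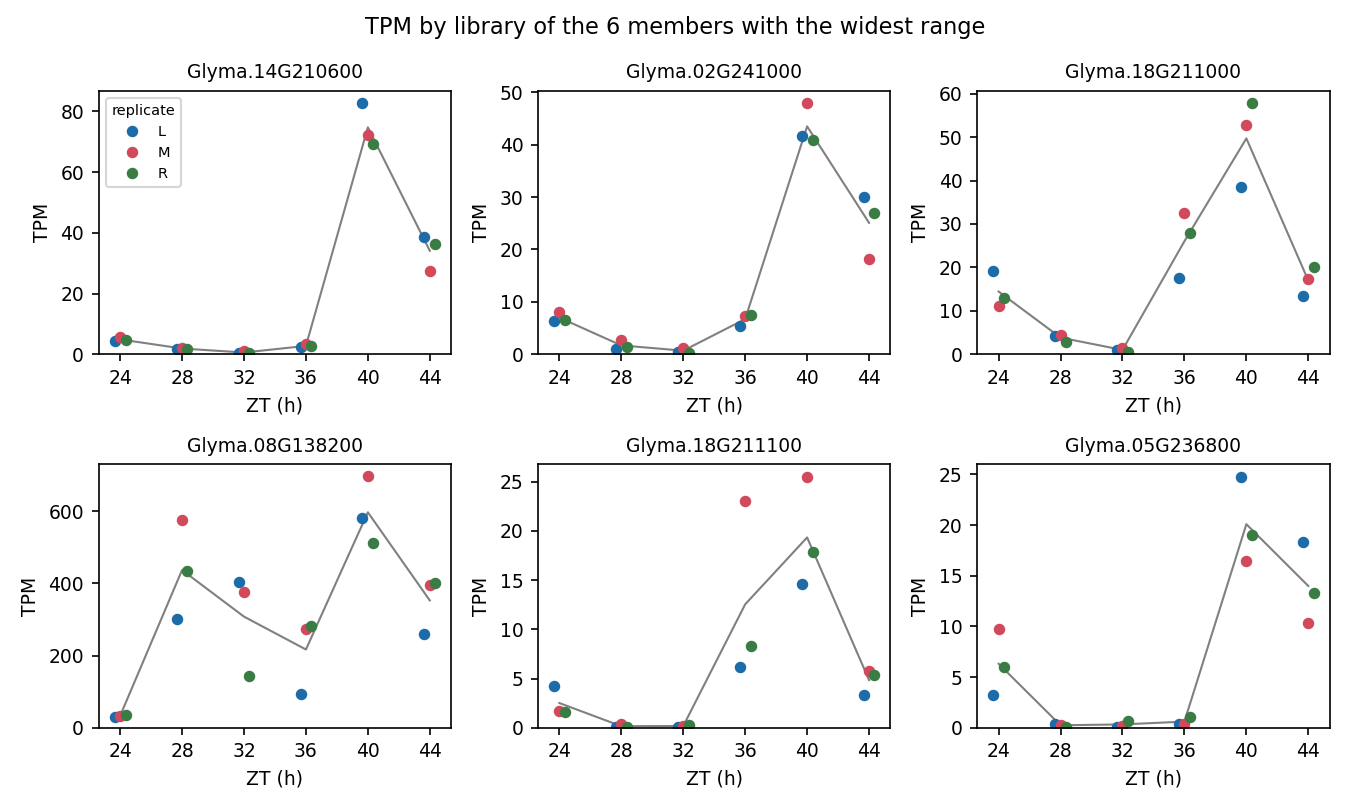
TPM (linear axis from 0) against ZT in hours for the 6 genes with the widest range, with 1 point per library coloured by replicate and a grey line through the time-point means. Glyma.14G210600, Glyma.02G241000 and Glyma.05G236800 are low at ZT28, ZT32 and ZT36, both genes of chromosome 18 are high at ZT36 and ZT40 and lower again at ZT44, and Glyma.08G138200 is low only at ZT24.

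By abundance, Glyma.17G230500 (chromosome 17, 38559031 to 38560317, plus strand) led with 942, 979 and 932 TPM at ZT40. TPM is scaled to gene length, so levels can be compared between genes. Its other 15 libraries did not exceed 657 TPM, the value of ZT36 M. Glyma.08G339400 (chromosome 8, 45583867 to 45584828, plus strand) came next with 598, 738 and 561 TPM at ZT40, but its ZT36 libraries had 583, 723 and 549 TPM. Its mean at ZT40 was higher by only 0.031 on the log2 scale, the narrowest margin of the 178 genes, and it no longer met the rule under FPKM, quantile normalization or rescaled TPM. The third by abundance was Glyma.08G138200.

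The margin of ZT40 over the next highest time point had a median of 0.51, and the median SD of the 3 log2 values at ZT40 was 0.18. It was below 0.2 in 11 genes and at least 1 in 22. The next highest time point was ZT36 in 117 genes, ZT44 in 46, ZT28 in 7, ZT24 in 6 and ZT32 in 2. The widest margin, 1.75, was that of Glyma.11G193600, which had 9.18, 8.49 and 8.62 TPM at ZT40 and at most 3.42 TPM in any other library. Glyma.08G044000, singled out after its values were seen, had 13.6, 9.67 and 21.3 TPM at ZT40, 0.0899, 0.125 and 0.776 TPM at ZT36 and 5.89, 2.52 and 3.06 TPM at ZT44. At ZT44 the gene was still at 53.3% of its range, with each library above all those of ZT24, ZT28, ZT32 and ZT36.

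The 3 libraries of ZT40 lay above all 15 others in 108 genes. The rule put ZT40 highest for each letter, so this separation follows in part from the choice. The share of all tested genes was not counted, and the number is a description. In the remaining 70, the highest of the other libraries was from ZT36 in 53, from ZT44 in 11 and from ZT24 or ZT28 in 6, and a single library, ZT36 M, supplied it in 47. This library took the largest share of gene TPM for the 178 genes among the ZT36 libraries, 0.728%.

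The trough lay at ZT24, ZT28 or ZT32, in the subjective day, in 171 of the genes. The lowest mean was at ZT32 in 96 genes (53.9%), at ZT24 in 38, at ZT28 in 37, at ZT36 in 4 and at ZT44 in 3. Without ZT32 R it was at ZT32 in 81 genes (45.5%), at ZT28 in 51 and at ZT24 in 40. Among all 24620 genes ZT32 was also the most frequent, with 44.8%, followed by ZT28 with 16.1%, ZT44 with 15.2%, ZT24 with 12.7% and ZT36 with 9.94%. Without ZT32 R, 29.8% of all genes were lowest at ZT32. Expressed as percent of a gene's own range, the median position was 72.5% at ZT36 and 58.6% at ZT44, and for ZT24, ZT28 and ZT32 it was 27.0%, 17.2% and 0%. Without ZT32 R the medians were 71.8% at ZT36 and 2.89% at ZT32. In the median gene, most of the climb from ZT32 to ZT40 was thus covered by ZT36, with or without ZT32 R.

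The 4 h grid leaves room for several shapes. Within 1 log2 unit of ZT40 lay ZT36 in 130 genes, ZT44 in 89, ZT24 in 28, ZT28 in 12 and ZT32 in 5. In 22 genes no other time point came that close, in 54 ZT36 alone, in 11 ZT44 alone and in 48 both of them and no other. The remaining 43 genes had at least 1 of ZT24, ZT28 and ZT32 within this distance.

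By the time point of the trough, the 96 genes lowest at ZT32 were at a median of 64.9% of their range at ZT44, the 38 lowest at ZT24 at 48.7% and the 37 lowest at ZT28 at 54.2%. These are descriptions of values that the choice of the genes used. A cosine with a period of 24 h placed the median peak of all 178 genes at 40.2 h, with quartiles of 39.4 and 41.2 h and a span of 35.8 to 45.5 h. With 1 cycle sampled, the cosine gives no evidence of its period.

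**Figure D2:**
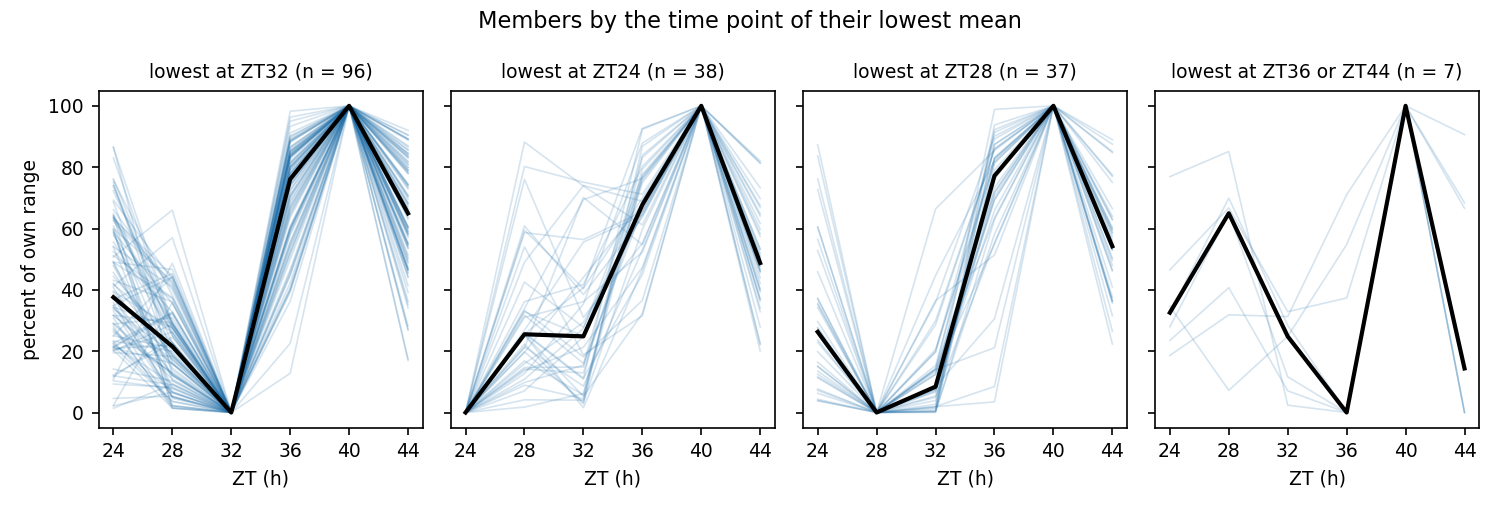
Position of each gene between its lowest (0) and highest (100) time-point mean of log2(TPM + 1), in percent, against ZT in hours. The panels hold the genes lowest at ZT32 (96), ZT24 (38), ZT28 (37) and ZT36 or ZT44 (7), with thin lines for single genes and a thick line for the median, which at ZT44 is 64.9% in the first panel and 48.7% in the second.

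In 9 genes (5.06%) there was a second, separate rise at ZT28, where all 3 libraries lay above those of ZT24 and ZT32. The same was found in 3.17% of all 24620 genes, and in 1.86% of the 8060 genes with their highest mean at ZT40. In 6 other genes the libraries of ZT24 lay in this way above those of ZT44 and ZT28, with ZT44 taken as the time point before. For these no share of all genes was counted. Glyma.05G180600, picked after its values were seen, had 84.6, 74.5 and 109 TPM at ZT28, above 49.1, 49.9 and 45.1 TPM at ZT24 and 66.8, 58.7 and 31.5 TPM at ZT32. It reached 435, 550 and 593 TPM at ZT40. In Glyma.11G238700, picked in the same way, the rise at ZT28 to 42.6, 51.1 and 48.3 TPM was larger in proportion to ZT40, at 71.9, 63.3 and 79.6 TPM. At ZT24 that gene had 15.2, 11.8 and 10.4 TPM.

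The choice of these genes fixed that ZT40 was highest, but not which side of ZT40 was higher, so ZT44 was compared with ZT36. Of the 178 genes, 16 (8.99%) were higher at ZT44 and 43 (24.2%) lower, by limma's contrast at an adjusted p under 0.05. Of all 24620 genes 9.95% were higher and 21.4% lower. The members' shares were near this background, and the median difference was −0.25 for the members and for all genes. With quantile normalization the medians were −0.23 and −0.062. ZT36 or ZT44 was the lowest time point, which entered the range, in 7 members, and of the other 171 there were 13 higher (7.60%) and 41 lower (24.0%), beside 5.70% and 19% of the 18422 tested genes with their lowest mean elsewhere too. In libraries, all 3 of ZT44 lay above all 3 of ZT36 in 20 genes (11.2%, background 13.1%), and the reverse held in 57 (32%, background 30.8%). Without ZT36 M 26 members (14.6%) and 13.1% of all genes were lower at ZT44, and without ZT36 L 10 members (5.62%) and 7.90% of all genes were higher. Under quantile normalization 25 members (14.0%) were higher and 42 (23.6%) lower, against 15.0% and 17.3% of all genes. The ZT44 libraries were the shallowest, and the part of depth in these counts was not tested.

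The genes called in each direction differed much in course. The 3 largest increases from ZT36 to ZT44 were those of Glyma.18G103500, Glyma.05G236800 and Glyma.14G210600. Glyma.18G103500 (chromosome 18, 11234541 to 11236613, plus strand) had 0.756, 1.13 and 1.36 TPM at ZT36, 29.0, 19.7 and 23.3 TPM at ZT40 and 19.2, 16.3 and 20.4 TPM at ZT44. It was low only at ZT32 and ZT36, since ZT28 had 13.4, 15.4 and 20.1 TPM, and ZT28 and ZT44 overlapped with ZT40. Its ZT44 mean exceeded that of ZT36 by 3.24 log2 units, but ZT36 was its lowest time point and set the range that chose it, so no test is given. It no longer met the rule with FPKM, rescaled TPM or quantile normalization. Glyma.05G236800 and Glyma.14G210600 each differed by 3.21. In Glyma.05G236800 ZT36 lay at 8.48% of the range, near the lowest mean at ZT28, so no test is given for it either. In Glyma.14G210600 ZT36 lay at 22.5% of the range (standard error 0.24, adjusted p = 1.7e-11 by limma's contrast). Genes named for the largest called differences passed the threshold by that choice, so their p-values are a description.

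The sharpest fall was that of Glyma.06G137300 (chromosome 6, 11237072 to 11239469, minus strand). It had 7.14, 8.21 and 12.8 TPM at ZT36, 18.0, 16.7 and 19.8 TPM at ZT40 and 1.07, 1.09 and 1.20 TPM at ZT44, where its mean was the lowest of the day. Its difference was −2.25, without a test because ZT44 set its range. Glyma.09G190600 (chromosome 9, 41510962 to 41512856, plus strand) had 26.1, 39.9 and 25.1 TPM at ZT36, overlapping with 33.9, 46.1 and 42.7 TPM at ZT40, and fell to 9.53, 7.67 and 7.67 TPM at ZT44. Here the difference was −1.73 (standard error 0.28, adjusted p = 1.8e-05). Among the genes of widest range, Glyma.02G241000 was also higher at ZT44, by 1.74 (adjusted p = 1.4e-05), and Glyma.18G211100 was lower, with a difference of −1.04 (adjusted p = 0.017), whereas Glyma.18G211000 differed by −0.56 (standard error 0.29) and did not pass the threshold (adjusted p = 0.15).

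**Figure D3:**
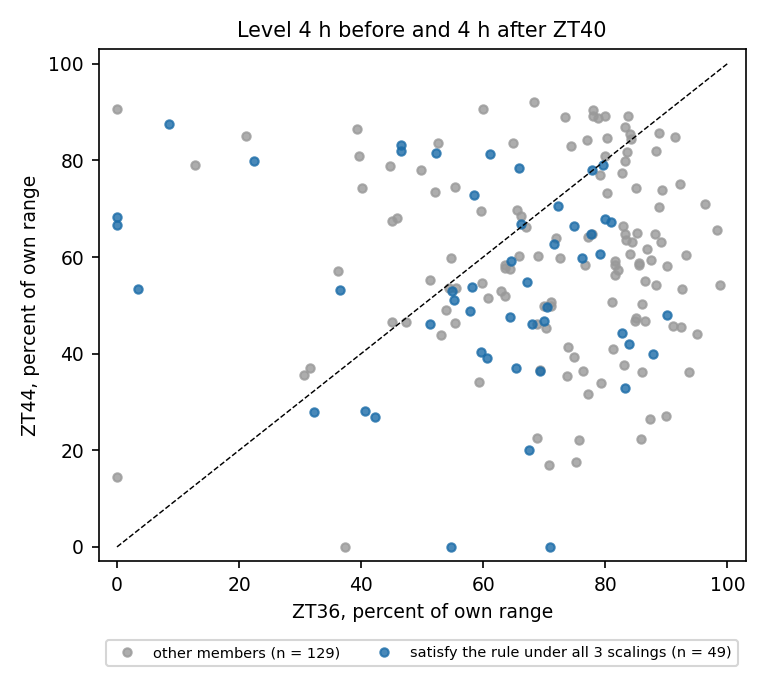
Level at ZT44 against level at ZT36, each in percent of the gene's own range, for the 178 genes. The dashed line marks equal levels and blue points are the 49 genes that met the rule under rescaled TPM, FPKM and quantile normalization alike. More points lie below the line than above it. The mean at ZT44 is lower than at ZT36 in 125 genes (70.2%) and higher in 53 (29.8%). Of all tested genes, 69.3% are lower and 30.7% higher, so this imbalance is not particular to the 178 genes.

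ZT24 was compared with ZT32 as the pair of time points 8 h from ZT40, ZT24 standing for the day after. Of the 178 genes, 76 (42.7%) were higher at ZT24 and 18 (10.1%) lower, where 25.7% and 6.89% of all 24620 genes were. In libraries, the 3 of ZT24 lay above the 3 of ZT32 in 84 genes (47.2%, background 34.1%), and below them in 22 (12.4%, background 8.72%). ZT24 and ZT32 enter the range that chose the genes, and 134 of them had their lowest mean at 1 of the 2, so a larger share of calls either way is built into the choice. Of the other 44 genes, 13 (29.5%) were higher at ZT24 and 2 (4.55%) lower, beside 17.3% and 9.47% of the 10459 tested genes whose lowest mean was at neither. The median difference was 0.56 for the 178 genes and 0.28 for all genes.

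How many genes went each way changed when libraries were scaled differently. With the library sums made equal on the tested genes without the 100 most abundant, a scaling chosen after seeing the data, the median difference was 0.24 for the 178 genes and −0.028 for all. Of the 178 genes 59 (33.1%) were then higher at ZT24 and 34 (19.1%) lower, against 16.9% and 18.6% of all genes. With quantile normalization the medians were 0.26 and −0.0001, and 62 members (34.8%) were higher and 35 (19.7%) lower, against 19.3% and 19% of all genes. The members' share of lower calls was thus near that of all genes under both scalings, and their share of higher calls was above it. The members were the same genes throughout, 96 of them lowest at ZT32 and 38 at ZT24 as deposited. Their choice thus bears on the higher calls and on the medians under each scaling, which are a description. Relative to the median of all genes, the members' median was higher by 0.28 as deposited, 0.27 with equal sums and 0.26 with quantile normalization. A further rescaling, to a fixed total, let 45463 genes pass the filter, and there 63 members (35.4%) were higher and 37 (20.8%) lower, against 10.3% and 23.8% of this larger set. Without ZT32 R, 35.4% of the 178 genes and 16.2% of all genes were higher at ZT24, and 14.0% and 9.10% lower.

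Glyma.18G211000 had the largest excess at ZT24, with 19.2, 11.1 and 13.1 TPM against 1.06, 1.39 and 0.580 TPM at ZT32. The difference was 2.93, and as ZT32 set the range of this gene no test is given. Glyma.18G103500 followed with 12.0, 17.4 and 10.3 TPM at ZT24 against 0.814, 2.18 and 0.830 TPM at ZT32, a difference of 2.67. Its ZT32 mean lay at 2.39% of its range, close to the lowest mean at ZT36, so no test is given here either. Of the genes lower at ZT24, Glyma.08G138200 differed by −3.05. Glyma.11G035100 (chromosome 11, 2543877 to 2544470, minus strand) had 0.155, 0.159 and 0.189 TPM at ZT24 and 5.87, 4.97 and 8.76 TPM at ZT32, a difference of −2.66. In both, ZT24 set the range, and no test is given. Glyma.11G035100 was also lower at ZT44 than at ZT36, with a difference of −1.67 (adjusted p = 3.9e-05). With 11.8, 13.5 and 14.0 TPM at ZT40, the gene covered part of its range by ZT32 and was low again at ZT44, with 0.294, 1.06 and 2.2 TPM.

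Both comparisons passed the threshold in 27 genes. In 12 of them (6.74% of the 178) ZT44 was lower than ZT36 and ZT24 higher than ZT32, a pattern found in 3.01% of all genes. In 8 (4.49%) ZT44 and ZT24 were both higher, in 6 (3.37%) both were lower, and in 1 (0.562%) ZT44 was higher and ZT24 lower. Among all genes these patterns made up 6.49%, 3.31% and 0.183%. ZT24 or ZT32 was the lowest time point, which entered the range, in 134 of the 178 genes. The choice thus bears on the shares of all 4 patterns, which are given as a description. The F-test over the 6 time points called all 178 genes and 76.3% of the 24620, and since the rule chose on these values nothing is read from that count.

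**Figure D4:**
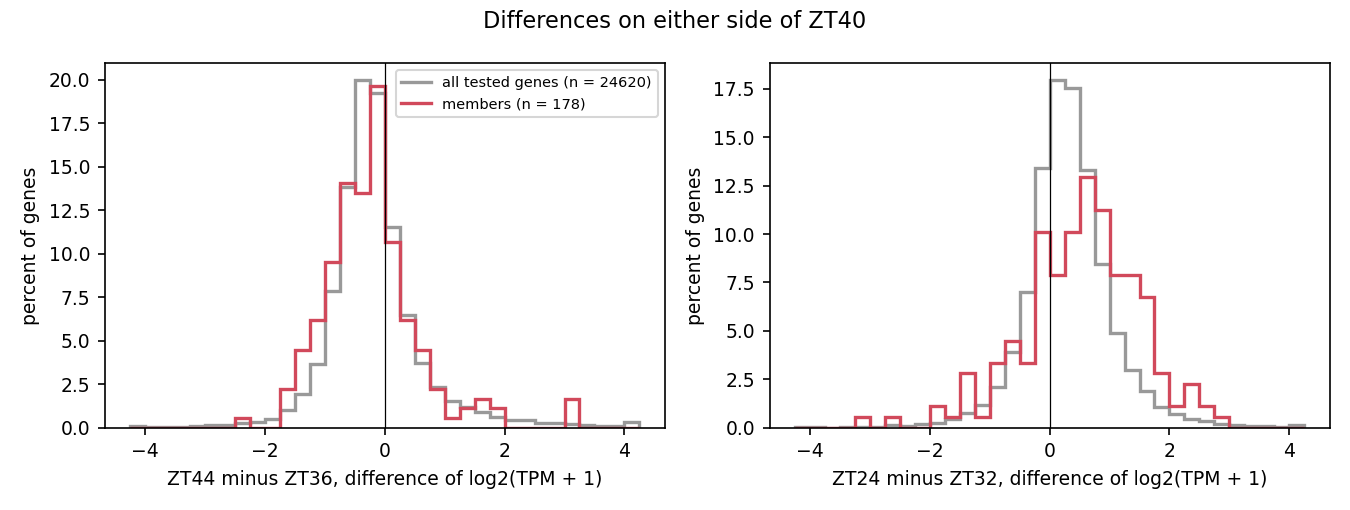
Percent of genes in each bin of 0.25 of the difference in mean log2(TPM + 1), for ZT44 minus ZT36 and ZT24 minus ZT32, with the 178 genes in red and all 24620 tested genes in grey. Values beyond the axis are placed in the outermost bin. In the first panel both medians are −0.25, and in the second the members' median is 0.56 and that of all genes 0.28.

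Membership depended on how libraries were scaled, which was examined gene by gene. Of the 178 genes, 110 met the rule with TPM rescaled to a fixed total without the 100 most abundant genes, 87 with FPKM and 57 with quantile normalization. The highest mean stayed at ZT40 in 174, 168 and 166 genes under these scalings. A highest value at ZT40 for each letter was found in 126, 111 and 115, and a range of at least 2 in 150, 136 and 77. The genes were thus more often lost for a narrower range, or for 1 replicate with another highest time point, than for another highest mean. The rule held under all 3 of rescaling, FPKM and quantile normalization in 49 genes and under none of the 3 in 58. Of the 49, 22 had a range of at least 3, and they included 16 of the 20 genes with the widest range. With equal sums on the deposited scale 79 of the genes met the rule. Leaving out 1 library at a time kept from 148 (without ZT32 R) to 178 of the genes. An omitted library can only ease the condition of a highest value for each letter. Genes could thus be lost only through the range or the filter, and these numbers are no like measure to those of the scalings.

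The same rule applied to the other time points found most genes for ZT36, 537 before any limit, followed by ZT24 with 297, ZT44 with 280, ZT28 with 211 and ZT32 with 79. ZT40 thus gave fewer genes than any of the other times except ZT32, although ZT40 had the highest mean in 32.7% of the 24620 genes. Of 12 genes of the clock and its outputs whose identifiers are known, 0 were among the 178. The highest mean of 4 of them was at ZT36 and that of 5 at ZT44 or ZT24. *GmRVE2d*, of a family of MYB factors related to *LHY*, was the only 1 of the 12 with its highest mean at ZT40, with a range of 5.15, and it is the gene that met the criteria and was set aside by name.

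The 178 genes lay on all 20 chromosomes, 89 on each strand. Chromosome 8 held the most, 15, and relative to the number of genes tested the density ran from 2.53 per 1000 on chromosome 15 to 14.4 on chromosome 16, with 7.23 over the whole genome. The gene models spanned 306 to 21984 bp with a median of 2895 bp, where the median of all tested genes was 3904 bp.

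Some of the genes lay close together. Another member was within 50 kb of 27 of them (15.2%), and 11 (6.18%) had a member as the adjoining annotated gene. With the same rule at the other time points, limited to 200 genes each, the share within 50 kb was 11.5% for ZT36 and for ZT44, 7.50% for ZT24, 4.00% for ZT28 and 2.53% for ZT32. The next tested gene on either side of a member was also examined, with untested genes in between passed over. Of the 333 such genes that are not members, 132 (39.6%) had their highest mean at ZT40 and 28.2% at ZT36, against 32.7% and 32.4% of all tested genes. These shares are given as a description, since neighbours can share reads or be copies of one another. Among the 15 close pairs, 8 were on the same strand and 6 were adjoining, and for 2 pairs an assembled locus ran over both genes in 2 libraries.

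A pair that may share reads was Glyma.03G090200 and Glyma.03G090500, both 2816 bp long, with 11 and 11.2 TPM at ZT40 and 1.15 and 1.11 TPM at ZT32. How the quantification assigned reads between them was not measured, so the values of either gene are uncertain.

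On chromosome 18, 2 stretches each held several members. In the first, Glyma.18G210900, Glyma.18G211000 and Glyma.18G211100 are consecutive and span 49735514 to 49775630, or 40.1 kb. They did not share their course after ZT40. Glyma.18G210900 had 8.73, 5.97 and 8.88 TPM at ZT40 and 0.369, 0.302 and 0.0841 TPM at ZT44, its lowest mean, whereas Glyma.18G211000 kept 13.4 to 20.2 TPM at ZT44.

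In the second stretch, Glyma.18G266900, Glyma.18G267200, Glyma.18G267800 and Glyma.18G267900 lie within 75 kb, from 55125943 to 55200950, all on the minus strand. The last pair of them are adjoining. Glyma.18G267800 had 4.79, 4.35 and 4.08 TPM at ZT36, 14.6, 16.9 and 8.84 TPM at ZT40 and 1.8, 2.57 and 2.33 TPM at ZT44, and Glyma.18G267900 had 4.04, 3.03 and 3.78 TPM, then 9.21, 10.9 and 4.40 TPM, then 0.796, 1.22 and 2.13 TPM. In both, ZT40 R was the lowest of the ZT40 libraries, and an assembled locus over both genes was listed in 2 libraries. Glyma.18G266900 and Glyma.18G267200 had flatter courses, with ZT36 means of 12.3 and 13.5 TPM beside 15.0 and 17.3 TPM at ZT40. The genes between them were mostly at or near 0.

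**Figure D5:**
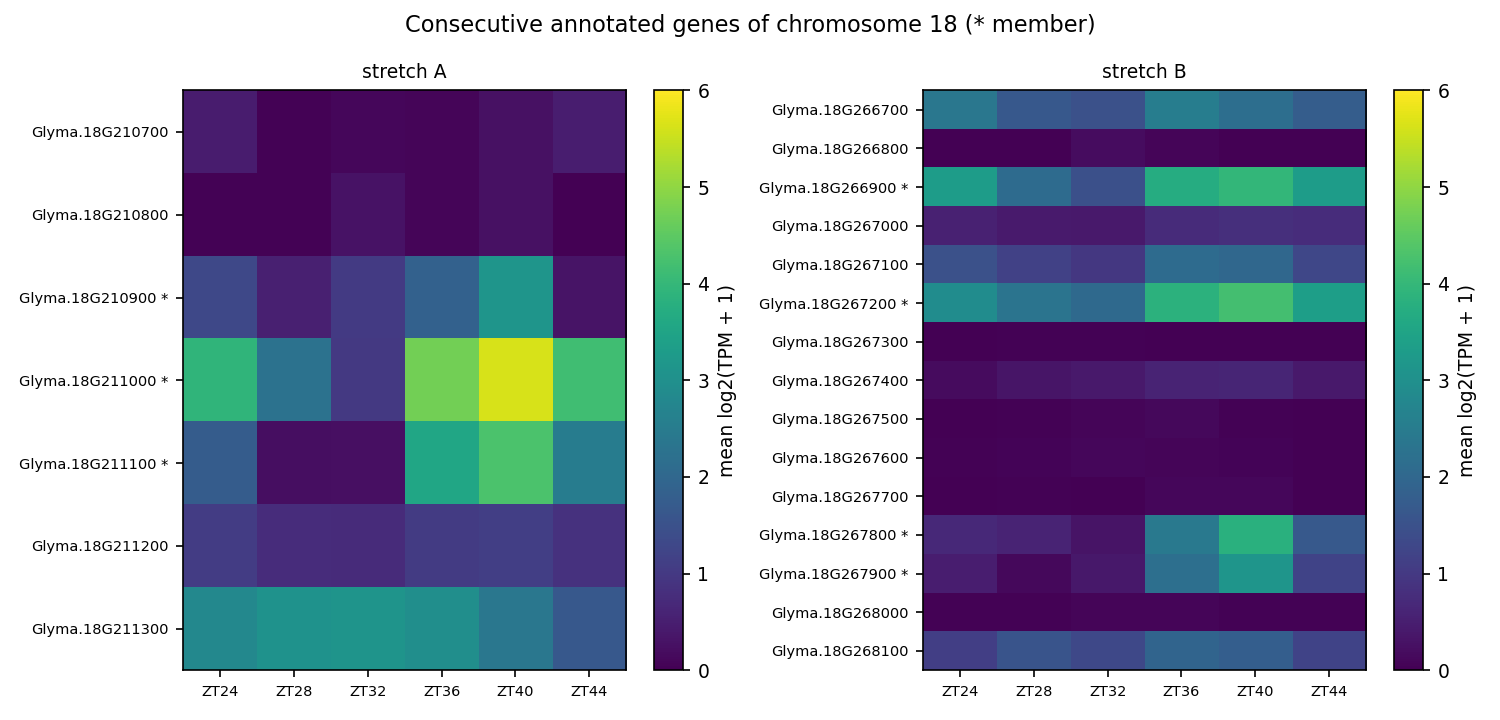
Mean log2(TPM + 1) by time point (colour) for consecutive annotated genes of the 2 stretches of chromosome 18, in genome order from top to bottom, with members marked by an asterisk. In stretch A 3 of 7 genes and in stretch B 4 of 15 are members, all brightest at ZT40, and most of the genes between the members of stretch B stay near 0.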

How the data were processed

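Paired reads were trimmed (*Trimmomatic*) and mapped to Gmax_Wm82_a2_v1 (*HISAT2* 2.2.1) by the authors, who quantified annotated genes and assembled loci with *StringTie*, whose version is not given in the sources used here. The deposited tables of the 18 libraries hold, as the authors made them, coverage, FPKM and TPM. TPM was treated as a signal, because annotated genes and assembled loci deposited together sum to more than the scale allows. Without read counts, no count model or counting interval could be used.

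TPM was summed per gene and analysed as log2(TPM + 1), which understates differences of low genes. Genes with a mean of at least 1 TPM at a time point (24620) were fitted with limma 3.58.1 in R 4.3.3 (eBayes with trend, all 18 libraries in one fit, Benjamini-Hochberg over all tested genes, threshold 0.05). The scripts were tested on simulated data. Other steps used pandas 2.3.3, matplotlib 3.10.9 and numpy 2.4.6 under Python 3.11.15.

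The 178 genes, the lists and the tests were chosen with earlier results of these data known. Genes named were the 6 of widest range, the 3 most abundant at ZT40, the largest called differences each way in the contrasts (3 each for ZT44 and ZT36, 2 each for ZT24 and ZT32) and those at the threshold. Others, picked for a margin, a second rise or their position, were chosen after their values were seen. L, M and R were biological replicates and were not used as a block. Alternatives tried included another pseudocount (0.1), a filter of 5 TPM or none, 4 other scalings, eBayes without trend and a replicate block. Each library was also left out in turn, and for membership the range was also taken from log2 of the mean TPM + 1.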

Additional observations from a re-analysis of the deposited data

How the results depend on the processing

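The number of genes that met the rule was 531 with a pseudocount of 0.1, 87 with FPKM, 79 with equal library sums and 59 with quantile normalization, and 149 to 256 with 1 library left out. Of the 178 genes, 110 met it with rescaled TPM, 87 with FPKM, 57 with quantile normalization, and, in alternatives chosen after seeing the data, 79 with equal sums and 113 with rescaling and without ZT32 R, and 148 to 178 with 1 library left out. The genes higher at ZT44 than at ZT36 were 25 with quantile normalization and 10 to 20 with 1 library left out, and those lower 26 to 52. Those lower at ZT24 than at ZT32 were 37 with the rescaling, 34 with equal sums, 35 with quantile normalization and 12 to 25 with 1 library left out. Among all tested genes, quantile normalization gave 3704 higher at ZT44 and 4680 lower at ZT24, and equal sums 4153 higher and 4553 lower at ZT24. A filter of 5 TPM gave 2549 lower at ZT44, 4003 higher and 853 lower at ZT24 and 8911 in the F-test, with fewer genes tested. Those lower at ZT24 were 6131 with no filter (54451 genes tested) and 10798 with the rescaling (45463 tested). With 1 library left out, 3208 to 6544 were lower at ZT44 (fewest without ZT36 M) and 3909 to 7458 higher at ZT24 (fewest without ZT24 M, then 3981 without ZT32 R). Where no cause is named, the cause was not tested. The other 316 values of counts and peak time, and all 270 for the differences of single genes in the contrasts, kept their direction and their call or stayed within 1.5 times.

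No general pairing of libraries by the letters L, M and R was seen. Deviations from the time-point means correlated at a median of −0.013 for the same letter, with 10 of 45 pairs over 0.1. For other letters the median was 0.0023, with 16 of 90 pairs over 0.1. Single correlations ran from −0.37 to 0.32 and from −0.36 to 0.47, so a pairing at some time points cannot be told from these values. With the letters as a replicate block, 16 of the 178 genes were higher and 48 lower at ZT44, 77 higher and 17 lower at ZT24. Among all genes the block gave 2497 and 5545, 6608 and 1744, and 19157 in the F-test.

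Depth limits low values, above all at ZT44, and no counting error can be given. With 3 libraries per time point and 1 cycle sampled, p-values measure the spread between these libraries. Lists by gene product, leaf markers, promoter motifs and protein sequences were planned and not run, because no identifier matched the reference table.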
